A study of Homo sapiens with 30 samples.

Results

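The 9 genes described here, MDM2, MDM4, PPM1D, CDKN1A, CCNG1, TP53INP1, GADD45A, TRIAP1 and RRM2B, are the feedback regulators and growth arrest genes of the p53 pathway. They were chosen by name, as probe sets that the platform annotation gives a single symbol equal to one of these, and each had 1 such probe set among the 22465 genes with a single symbol. Levels were read on 30 Human Transcriptome Arrays, 1-colour Affymetrix chips, as log2 signal, where a step of 1 is a doubling. The colorectal carcinoma lines were HCT-116, HT-29 and KM12C, all human and long established; NK-92 is an established natural killer cell line, and TALL-104 is an established line of leukemic CD8+ T cells. Every line gave 3 arrays of cells treated for 24 h with elraglusib (9-ING-41), an inhibitor of the kinase GSK-3, at the labelled dose of 1 µM, and 3 of cells given its vehicle DMSO. The study's main text speaks of inhibitory concentrations, which can differ between lines, while its figure captions give 1 µM, as the labels do. Whether every line had the same dose is thus not settled by the sources. The labels call the replicates biological without saying that they were separate cultures, so p-values measure the spread between these samples.

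p53 is a transcription factor that is held at a low level in unstressed cells and accumulates after DNA damage and other stress. It then switches on genes that stop the cell cycle, repair DNA or start apoptosis, and among them genes such as MDM2 and PPM1D whose products switch p53 off again, so that the response limits itself. HCT-116 cells carry wild-type p53 and HT-29 cells carry a mutant form that does not activate these genes normally; the p53 state of the other lines was not taken up here.

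Colorectal epithelial markers with a mean signal over 8 on the DMSO arrays numbered 5 of 10 in HCT-116, 8 of 10 in HT-29, 7 of 10 in KM12C and 0 of 10 in the other lines. NK cell markers passed that level for 7 of 9 in NK-92 and 7 of 9 in TALL-104 cells and for 0 of 9 in the colorectal lines, and T cell markers did so for 6 of 10 in TALL-104, 4 of 10 in NK-92 and 1 of 10 in KM12C cells, where it was LCK. The array labelled TALL-104 DMSO replicate 2 correlated at 0.993 with an array of NK-92 cells and at a median of 0.869 with the other arrays of its own line. It was left out, so 29 arrays were compared, and several of the counts that rest on TALL-104 DMSO cells are also given with it. KM12C DMSO replicate 3 had a median signal of 4.47, against 4.23 and 4.26 on the other DMSO arrays of that line and 4.41 to 4.50 on its elraglusib arrays. The KM12C counts of genes that rose or fell with elraglusib by the adjusted p are given with and without it. Each array read the RNA of a whole culture, so a change in all cells and a change in the share of cells that express a gene cannot be told apart.

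In HCT-116 cells, 7 of the 9 genes rose with elraglusib and 0 fell, with differences between 1.37 and 2.08 on the log2 scale for the genes that rose. A gene is said to have risen or fallen here where its adjusted p in limma, over all 67528 probe sets, was under 0.05. Of all probe sets, 0.817% rose and 0.336% fell in this line. The genes that did not pass were MDM4 and CCNG1. Among those that rose, the paper already names MDM2, CDKN1A, TP53INP1 and GADD45A as raised in HCT-116 cells on these arrays. The median difference of the 9 genes was 1.61, against 0.02 over all probe sets.

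In HT-29 cells 4 genes rose, namely MDM2, MDM4, CDKN1A and TRIAP1, and 1 fell, CCNG1, against 4.62% and 3.39% of all probe sets, and no difference of the 9 was larger than 0.82 in size. CDKN1A is already named by the paper as raised in HT-29 cells. In KM12C cells TRIAP1 alone rose and 0 genes fell, against 0.603% and 0.894% of all probe sets. Without DMSO replicate 3 there were 1 rise and 3 falls. That fit called 7265 of all 67528 probe sets in place of 1011, and 3936 of them rose. Neither NK-92 nor TALL-104 cells had a gene past the threshold, 0 of 9 in each by limma, and these lines had no call at all, with 0% of probe sets risen and 0% fallen. At an unadjusted p under 0.05, 1 of the 9 genes passed in NK-92 (MDM2, lower) and 1 in TALL-104 cells (CDKN1A, higher), with 2934 and 3455 of all probe sets. The other fits that were run gave these lines 0 of the 9 as well. With TALL-104 DMSO replicate 2 kept in, the median TALL-104 difference of the 9 genes was 0.77 in place of 0.12, the largest was 1.99 for TP53INP1, and 0 of 9 passed (adjusted p of 0.823 or more). The study's own thresholds ask for an unadjusted p under 0.05 and at least a 1.5-fold change. Applied to the limma p-values, they gave 7 of 9 in HCT-116, 5 in HT-29, 1 in KM12C, 0 in NK-92 and 0 in TALL-104 cells. Of all probe sets, 2.51%, 8.37%, 5.59%, 0.801% and 1.20% passed in these lines. In each line more probe sets passed here than the paper counts as differentially expressed genes. These counts are therefore not the paper's own lists, and those of TALL-104 cells leave out DMSO replicate 2.

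**Figure D1:**
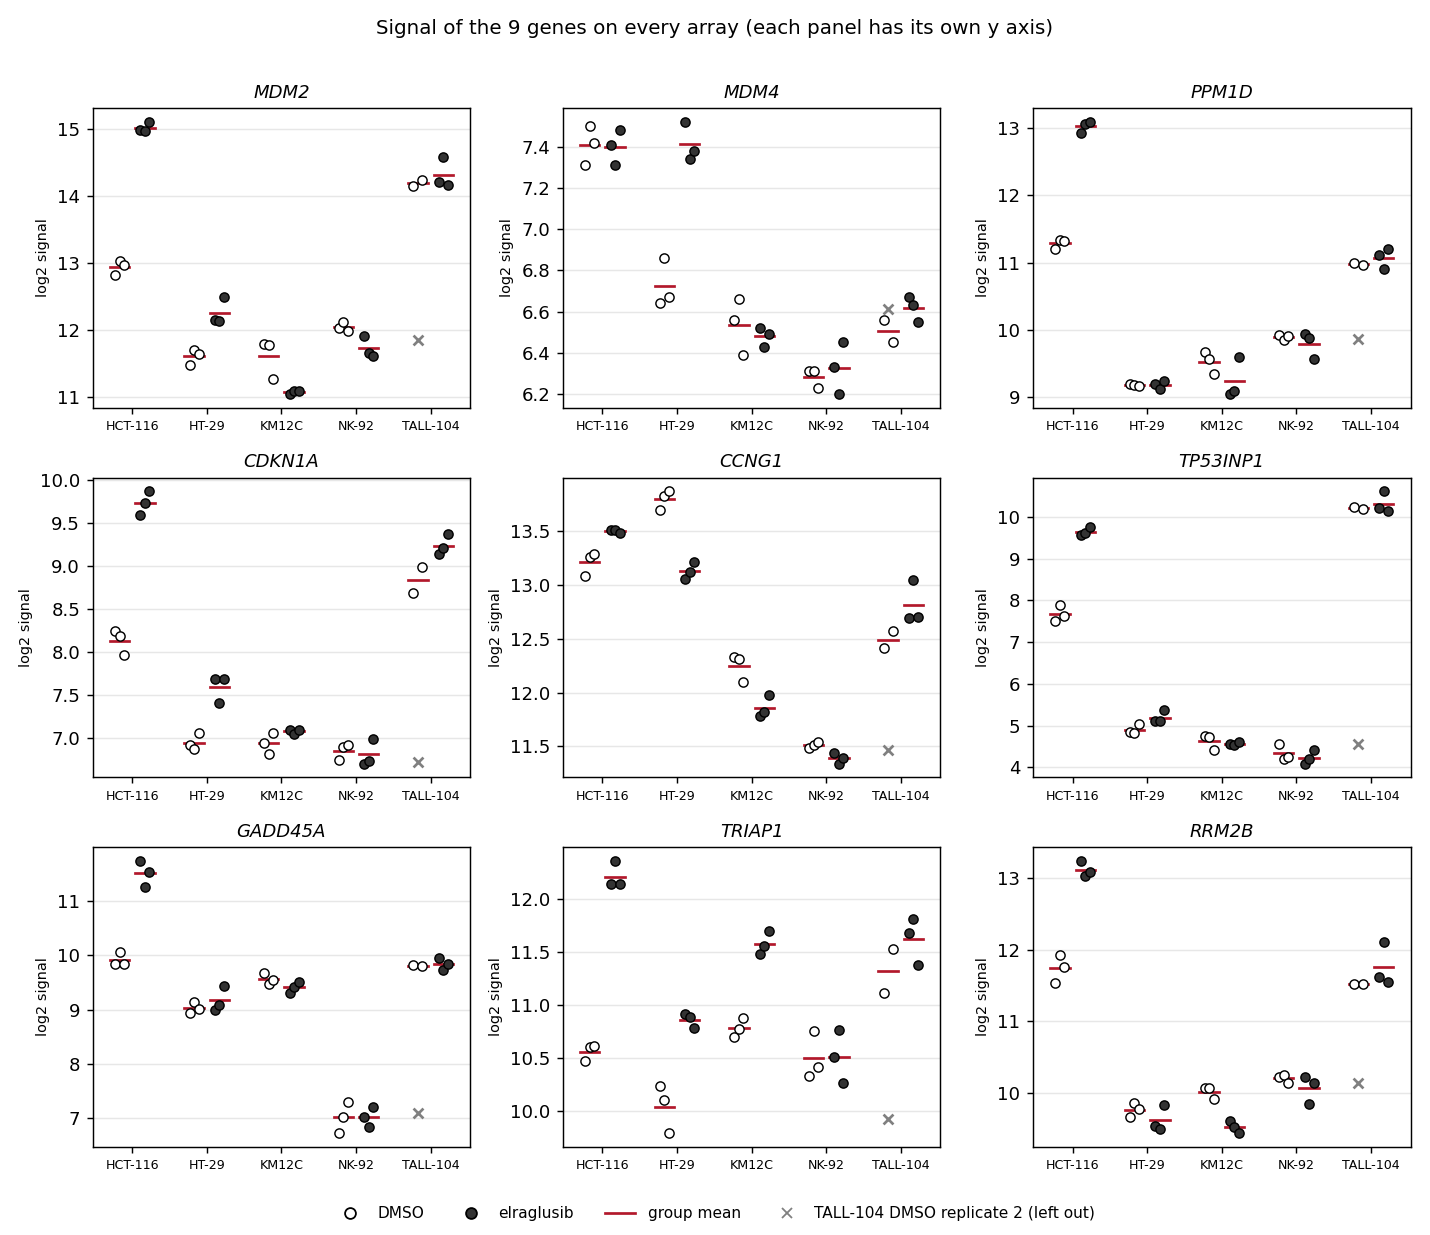
Log2 signal (y axis) of each of the 9 genes on every array, by cell line (x axis), with open circles for DMSO, filled circles for elraglusib, a red bar for each group mean and a grey cross for the array that was left out. In HCT-116 the treated arrays lie above the DMSO arrays for all genes but MDM4, though CCNG1 did not pass the threshold. The share of all probe sets that separate in this way was not computed. The grey cross lies near the NK-92 arrays for most genes.

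MDM2 is the ubiquitin ligase that marks p53 for destruction and is itself a p53 target. The gene lies on GRCh38.p14 at chr12:68808172-68850686 in the RefSeq annotation. In HCT-116 cells MDM2 read 12.83, 13.03 and 12.97 on the DMSO arrays and 14.99, 14.97 and 15.11 on the elraglusib arrays. The groups lay far apart, and the difference of 2.08 (SE 0.0975, adjusted p = 0.000475), or 4.23-fold, was the largest of the 9 genes in any line. In HT-29 cells the values were 11.49, 11.70 and 11.65 with DMSO against 12.16, 12.14 and 12.49 with elraglusib, without overlap, and MDM2 rose by 0.65 (SE 0.135, adjusted p = 0.0198). That call was lost without elraglusib replicate 3 or without DMSO replicate 1, where the adjusted p reached 0.0840.

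The sign of the difference was negative in KM12C and NK-92 cells, where neither passed. In KM12C cells MDM2 read 11.79, 11.78 and 11.28 with DMSO and 11.05, 11.10 and 11.10 with elraglusib, a difference of -0.53 that did not pass (adjusted p = 0.138). All treated arrays lay below the DMSO arrays, of which replicate 3 was the lowest, and without that array the difference of -0.70 passed (adjusted p = 0.0145). In NK-92 cells the values were 12.04, 12.13 and 11.99 with DMSO and 11.92, 11.66 and 11.61 with elraglusib, again without overlap, and the difference of -0.32 did not pass (adjusted p of 1.00). TALL-104 cells read 14.16 and 14.25 with DMSO and 14.21, 14.58 and 14.17 with elraglusib, which overlap.

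MDM2 has more than 1 start site, and its downstream promoter, inside the first intron, is the one known to bind p53. RefSeq promoter windows of 300 bases, from 250 before to 50 after a start, were searched on GRCh38.p14 for the p53 consensus site, a pair of adjoining 10-base elements that read the same on both strands. Windows were held for 6 of the 9 genes. The best match had 2 mismatches in 20 bases in the windows of the downstream MDM2 starts and 5 in those of the upstream starts, and 0.649% of all 35116 windows had a match with at most 2. That limit was set after the matches were seen. The 120 bases before the downstream start at 68809017, chr12:68808897-68809016 on the plus strand, are shown because they hold that match, in capitals.
MDM2 downstream promoter: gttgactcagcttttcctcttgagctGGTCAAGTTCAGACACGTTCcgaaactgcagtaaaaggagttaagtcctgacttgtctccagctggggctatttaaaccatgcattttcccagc

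Best matches in the windows of the other genes had 4 mismatches for PPM1D and TRIAP1, 5 for MDM4 and CDKN1A and 6 for CCNG1. A match is a description of letters, and known p53 sites can lie outside such a window. The gene whose pattern over the arrays was most like that of MDM2, the death receptor gene FAS, had 3 windows, with best matches of 2, 5 and 5 mismatches, and the first of these lies at chr10:88991309-88991328. Other genes with a pattern like that of MDM2 had best matches of 3 (GDF15), 5 to 6 (BLOC1S2) and 6 (TIGAR) mismatches. No match is given for TNFRSF10B, whose pattern was also like that of MDM2. The MDM2 and FAS matches are set out beside each other, with the match in capitals.
MDM2: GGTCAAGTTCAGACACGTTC
FAS: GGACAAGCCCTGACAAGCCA

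MDM4, at chr1:204516406-204558120, encodes a relative of MDM2 that binds p53 and blocks its activation domain without marking it for destruction. It behaved unlike MDM2 in HCT-116 cells, with 7.31, 7.50 and 7.42 on the DMSO arrays and 7.41, 7.31 and 7.48 on the elraglusib arrays. Those groups overlap, and the difference was -0.01 with a 95% interval from -0.24 to 0.22. In HT-29 cells MDM4 read 6.64, 6.86 and 6.67 with DMSO and 7.52, 7.34 and 7.38 with elraglusib. This rise of 0.69 (SE 0.119, adjusted p = 0.00789) was 1.61-fold, brought the HT-29 arrays, at 7.34 to 7.52, near the HCT-116 arrays, at 7.31 to 7.50, and passed in each of the 6 fits that left out 1 array. Elsewhere the MDM4 arrays overlapped, with differences of -0.06, 0.04 and 0.11 in KM12C, NK-92 and TALL-104 cells.

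PPM1D, at chr17:60600193-60666280, encodes the phosphatase WIP1, which removes the activating phosphates from p53 and from the kinases upstream of it. Its DMSO arrays read 11.21, 11.33 and 11.32 in HCT-116 cells and its elraglusib arrays 12.92, 13.06 and 13.09. With no array of either group near the other, PPM1D rose by 1.74 (SE 0.0941, adjusted p = 0.000739), or 3.33-fold. In HT-29 cells it read 9.20, 9.19 and 9.17 with DMSO and 9.20, 9.12 and 9.25 with elraglusib, a difference of 0.00 with a 95% interval from -0.24 to 0.24. Both MDM2 and PPM1D rose in HCT-116 cells, and of this pair MDM2 alone rose in HT-29 cells. PPM1D differences in KM12C, NK-92 and TALL-104 cells were -0.28, -0.10 and 0.10, and none passed.

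CCNG1 encodes cyclin G1, which binds a phosphatase that acts on MDM2, and lies at chr5:163437571-163457640. The sign of its difference varied between lines. HCT-116 arrays read 13.08, 13.26 and 13.29 with DMSO and 13.51, 13.51 and 13.48 with elraglusib, without overlap, and the difference of 0.29 did not pass (adjusted p = 0.235). In HT-29 cells CCNG1 read 13.70, 13.83 and 13.87 with DMSO and 13.06, 13.12 and 13.21 with elraglusib. It fell by 0.67 on the log2 scale there (SE 0.112, adjusted p = 0.00690), in each of the 6 fits that left out 1 array too. The difference was negative in KM12C cells as well, at 12.33, 12.31 and 12.10 against 11.78, 11.82 and 11.98, where the difference of -0.39 did not pass (adjusted p = 0.162). Without DMSO replicate 3 it was -0.46 and passed (adjusted p = 0.0448), as it did with array weights and in the fit over 29 arrays. TALL-104 cells read 12.41 and 12.57 with DMSO and 12.69, 13.05 and 12.70 with elraglusib, a difference of 0.32 that did not pass.

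CDKN1A encodes p21, the inhibitor of cyclin-dependent kinases through which p53 stops the cell cycle, and lies at chr6:36676463-36687332. HCT-116 cells gave 8.24, 8.18 and 7.96 with DMSO and 9.60, 9.74 and 9.87 with elraglusib. CDKN1A rose there by 1.61 (SE 0.117, adjusted p = 0.00257), or 3.05-fold. In HT-29 cells it read 6.91, 6.87 and 7.05 with DMSO and 7.68, 7.41 and 7.68 with elraglusib, and the rise of 0.65 (SE 0.125, adjusted p = 0.0141) was 1.57-fold. That HT-29 call was lost when elraglusib replicate 1 or either of DMSO replicates 1 and 2 was left out, where the adjusted p reached 0.0584. In TALL-104 cells all treated arrays, at 9.14, 9.21 and 9.37, lay above the DMSO arrays, at 8.69 and 8.99, and the difference of 0.40 did not pass (adjusted p = 0.918). In KM12C and NK-92 cells the groups overlapped, with differences of 0.14 and -0.04.

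GADD45A, at chr1:67685201-67688334, encodes a stress sensor that binds PCNA and the mitotic kinase CDK1. In HCT-116 cells it read 9.84, 10.06 and 9.84 with DMSO and 11.74, 11.26 and 11.54 with elraglusib, and it rose by 1.60 (SE 0.141, adjusted p = 0.00555), or 3.03-fold. No other line moved it past the threshold, and the groups overlapped in each, with differences of 0.14 in HT-29, -0.15 in KM12C, 0.00 in NK-92 and 0.04 in TALL-104 cells. The 95% interval in HT-29 cells ran from -0.19 to 0.47.

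TP53INP1 encodes a nuclear protein that promotes p53 phosphorylation and autophagy; in the annotation it lies at chr8:94925972-94949378. Signals in HCT-116 cells were 7.51, 7.88 and 7.62 with DMSO and 9.56, 9.61 and 9.77 with elraglusib, a rise of 1.98 (SE 0.123, adjusted p = 0.00147), or 3.94-fold, close to that of MDM2. HT-29 cells read 4.84, 4.82 and 5.04 with DMSO and 5.10, 5.10 and 5.37 with elraglusib, a difference of 0.29 that did not pass (adjusted p = 0.274). The files give no call of detection, and these HT-29 values, like those of KM12C and NK-92 cells, lie close to the median signal of a whole array (4.23 to 4.60), while TALL-104 cells read 10.23 and 10.20 with DMSO and 10.21, 10.61 and 10.14 with elraglusib. The gene was thus high in TALL-104 cells with either treatment.

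TRIAP1, at chr12:120443964-120446384, encodes a small mitochondrial protein that carries phospholipids between membranes and opposes apoptosis. It was the single gene of the 9 that rose in all 3 colorectal lines. HCT-116 cells read 10.47, 10.60 and 10.61 with DMSO and 12.14, 12.36 and 12.14 with elraglusib, a rise of 1.65 (SE 0.103, adjusted p = 0.00147), or 3.15-fold. HT-29 cells read 10.23, 10.10 and 9.79 with DMSO and 10.91, 10.89 and 10.78 with elraglusib, a rise of 0.82 (SE 0.138, adjusted p = 0.00714). In KM12C cells the values were 10.70, 10.77 and 10.88 with DMSO and 11.48, 11.56 and 11.70 with elraglusib, with no overlap. The KM12C rise of 0.80 (SE 0.118, adjusted p = 0.0197) stood against a median difference of 0.11 over all probe sets of that line. It kept its size, 0.74 to 0.85, when each array was left out, but its call only without DMSO replicate 3, and the adjusted p was up to 0.108 with any of the others left out. NK-92 cells overlapped at a difference of 0.01, and TALL-104 cells overlapped at 0.30.

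RRM2B encodes p53R2, the small subunit of ribonucleotide reductase that supplies deoxynucleotides for repair outside S phase, and lies at chr8:102204501-102238961. In HCT-116 cells it read 11.54, 11.92 and 11.76 with DMSO and 13.23, 13.02 and 13.08 with elraglusib, a rise of 1.37 (SE 0.123, adjusted p = 0.00609), or 2.58-fold. KM12C cells read 10.07, 10.07 and 9.92 with DMSO and 9.62, 9.54 and 9.45 with elraglusib, without overlap. That difference of -0.48 did not pass (adjusted p = 0.0820), and without DMSO replicate 3 it was -0.53 and did (adjusted p = 0.0293). In HT-29, NK-92 and TALL-104 cells the differences were -0.14, -0.13 and 0.24, and none passed.

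**Figure D2:**
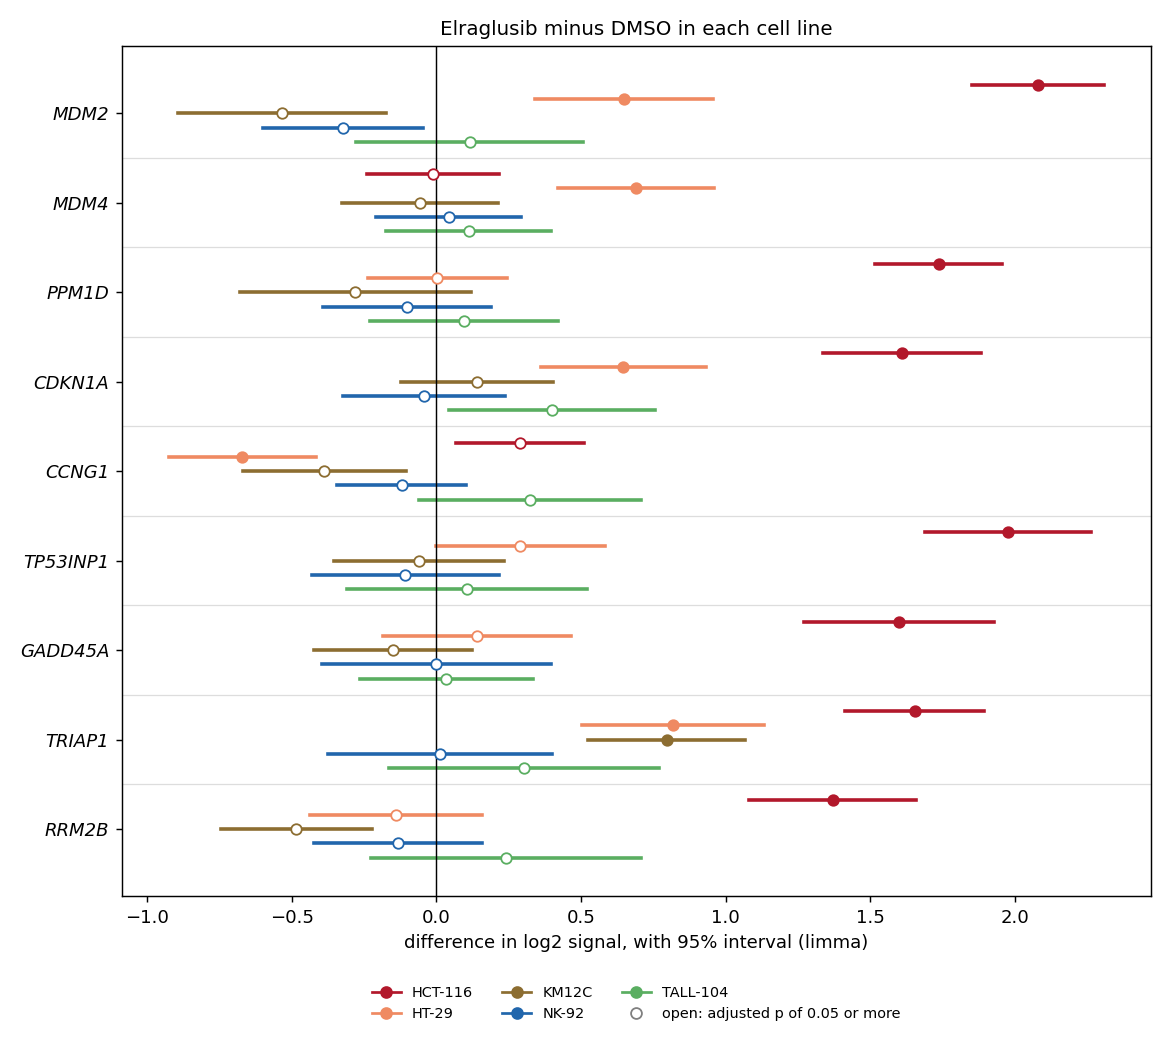
Difference in log2 signal, elraglusib minus DMSO (x axis), for each gene (y axis) and cell line (colour), with the 95% interval of the limma fit; filled points have an adjusted p under 0.05. HCT-116 points of 7 genes lie between 1.37 and 2.08, and every HT-29 point lies between -0.67 and 0.82.

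The difference between lines was tested as a contrast of the 2 responses in 1 limma fit over the 29 arrays. The response of HCT-116 cells differed from that of HT-29 cells for 9 of 9 genes, where 6.20% of all probe sets differed. It was higher in HCT-116 cells for 8, from 0.83 for TRIAP1 to 1.73 for PPM1D, and lower for MDM4, at -0.70 (adjusted p = 0.000857). CCNG1, which on its own did not pass in HCT-116 cells, differed by 0.96 (adjusted p = 4.47e-05); its own difference was 0.29 in HCT-116 and -0.67 in HT-29 cells. Against KM12C cells, 8 of 9 responses were higher in HCT-116 cells, where 1.90% of all probe sets differed, the highest being MDM2 at 2.61 and TP53INP1 at 2.04. The TP53INP1 signal of HT-29, KM12C and NK-92 cells is close to the array median, so its change there may not be fully seen. The TRIAP1 contrast against KM12C of 0.86 (adjusted p = 0.0263) was lost in 6 of 12 fits that left out 1 array, namely HCT-116 elraglusib replicate 2, HCT-116 DMSO replicates 1 and 3, KM12C elraglusib replicates 1 and 2 and KM12C DMSO replicate 2.

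HT-29 and KM12C responses differed for 2 of 9 genes, against 3.80% of all probe sets. MDM2 was 1.18 higher in HT-29 cells (adjusted p = 0.000381) and MDM4 0.75 higher (adjusted p = 0.00108), and both encode inhibitors of p53. PPM1D, whose product also switches p53 off, differed by 0.28 between the lines, which did not pass (adjusted p = 0.458). TRIAP1, which rose in both, had a difference of 0.02 between them with a 95% interval from -0.40 to 0.45. CDKN1A, past the threshold in HT-29 but not in KM12C cells, differed by 0.51 between them, which did not pass (adjusted p = 0.0809).

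Set against NK-92 cells, HCT-116 responses were higher for 7 of 9 genes, where 0.495% of all probe sets differed, and set against TALL-104 cells for the same 7, where 0.387% did. Those genes were MDM2, PPM1D, CDKN1A, TP53INP1, GADD45A, TRIAP1 and RRM2B, with contrasts from 1.50 to 2.40 against NK-92 and from 1.13 to 1.97 against TALL-104 cells. With TALL-104 DMSO replicate 2 kept in, 0 of the 7 remained called against TALL-104. Without TALL-104 DMSO replicate 3, which left 1 DMSO array in that line, TRIAP1 was lost (adjusted p = 0.0526). RRM2B was lost in a fit of those lines alone (adjusted p = 0.125). NK-92 and TALL-104 responses differed for 0 of 9 genes and 0% of probe sets by limma, with 3 genes and 3849 probe sets at an unadjusted p under 0.05. Those 3 were MDM2, CDKN1A and CCNG1, each 0.44 lower in NK-92 cells.

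**Figure D3:**
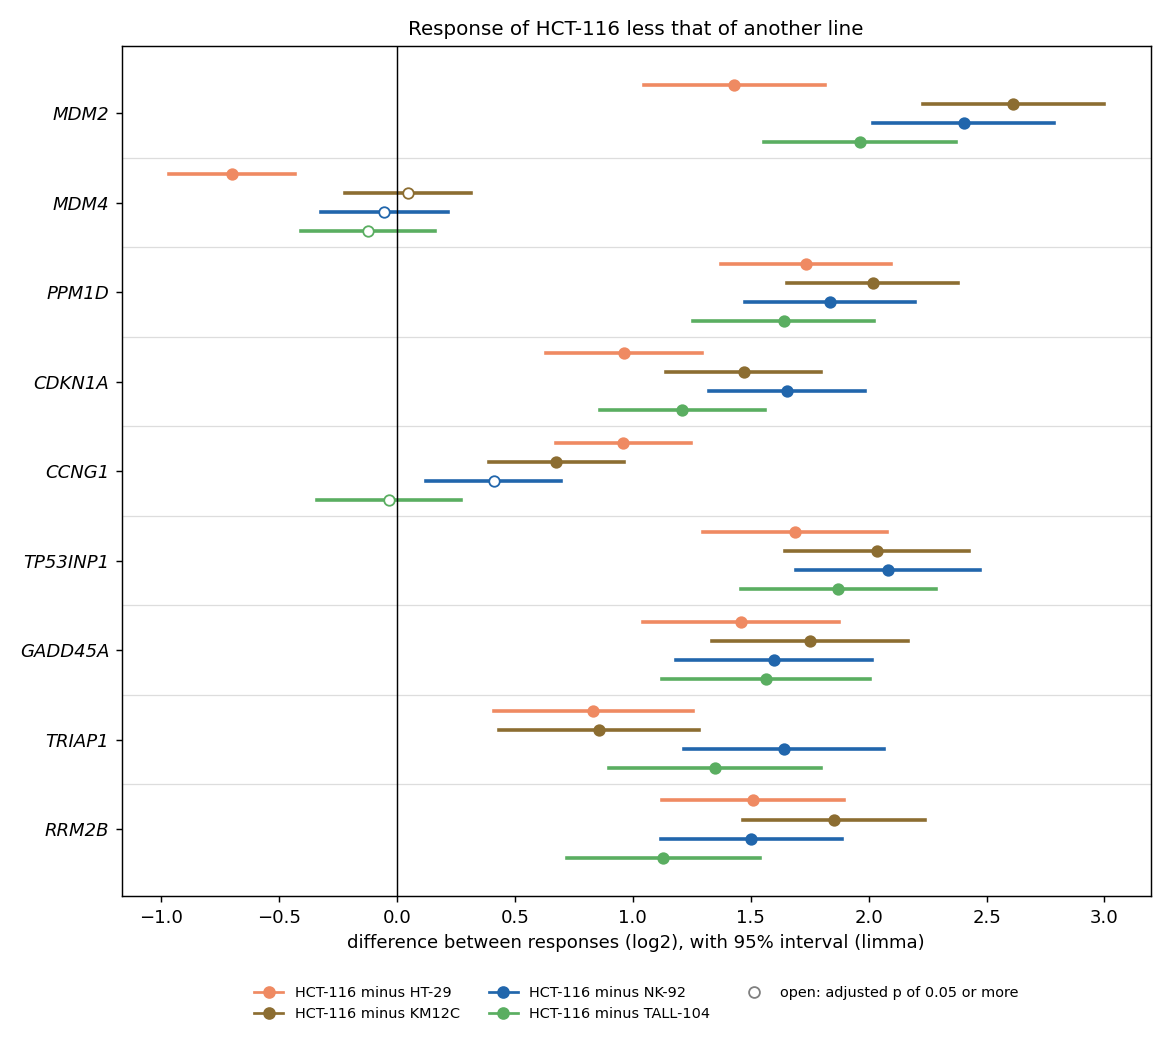
Response of HCT-116 cells less the response of another line (x axis, log2) for each gene (y axis), with the 95% interval of the limma contrast; filled points have an adjusted p under 0.05. All points of MDM2, PPM1D, TP53INP1 and GADD45A lie at 1.43 or more, while MDM4 is at -0.70 against HT-29 and near 0 against the others. The TP53INP1 signal of HT-29, KM12C and NK-92 cells is close to the array median.

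The lines already differed in these genes without the drug. On the DMSO arrays HCT-116 cells were higher than HT-29 cells in 8 of the 9 genes and lower in CCNG1, at -0.59, where 19.3% of all probe sets differed. These differences included 2.10 for PPM1D and 1.97 for RRM2B, and 2.77 for TP53INP1, whose HT-29 signal is close to the array median, so that the true difference may be larger. The smallest, 0.52 for TRIAP1, was lost without HCT-116 DMSO replicate 2 or 3 or HT-29 DMSO replicate 3, where the adjusted p reached 0.107. Against KM12C cells HCT-116 cells were higher in 7 genes, where 20.0% of all probe sets differed, and the exceptions were GADD45A and TRIAP1, at 0.35 and -0.22.

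HT-29 and KM12C cells differed in 4 genes with DMSO, against 18.4% of all probe sets. CCNG1 was 1.55 higher in HT-29 cells, and PPM1D, GADD45A and TRIAP1 were lower, at -0.34, -0.53 and -0.74. The PPM1D call held only without KM12C DMSO replicate 3 of the 6 fits that left out 1 array, and that of GADD45A was lost without DMSO replicate 1 of either line. MDM2 and CDKN1A did not pass between these lines, at 0.00 and 0.01, with 95% intervals from -0.29 to 0.29 and from -0.25 to 0.27.

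NK-92 cells were lower than TALL-104 cells in 8 of 9 genes with DMSO, where 20.1% of all probe sets differed, and MDM4 did not pass, at -0.22. GADD45A differed by -2.79, MDM2 by -2.15 and CDKN1A by -1.99. TP53INP1 differed by -5.88 as measured, with its NK-92 signal close to the array median, so the true difference may be larger. These values rest on 2 DMSO arrays of TALL-104 cells, and with DMSO replicate 2 kept in the differences ran from -3.99 for TP53INP1 to -0.36 for TRIAP1 and 0 of 9 passed. The TRIAP1 call was lost without TALL-104 DMSO replicate 3 too (adjusted p = 0.0541).

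Over the 14 DMSO arrays of all 5 lines, TALL-104 cells had the highest group mean for MDM2, CDKN1A, TP53INP1 and TRIAP1, HCT-116 cells for MDM4, PPM1D, GADD45A and RRM2B, and HT-29 cells for CCNG1. The same lines had the highest means with TALL-104 DMSO replicate 2 kept in, where MDM2 in TALL-104 cells was 13.42 ± 1.35 (SD, n = 3) and CDKN1A was 8.13 ± 1.23 (SD, n = 3). The CDKN1A mean was then level with that of HCT-116 cells, 8.13. TRIAP1 was 10.85 ± 0.835 in TALL-104 and 10.78 ± 0.0907 in KM12C cells (SD, n = 3 each), so the first place is not settled for these genes. MDM2 ran from 14.21 ± 0.0636 (SD, n = 2) in TALL-104 over 12.94 ± 0.103 (SD, n = 3) in HCT-116 and 12.05 ± 0.0709 (SD, n = 3) in NK-92 to 11.62 ± 0.292 in KM12C and 11.61 ± 0.110 in HT-29 cells (SD, n = 3 each), and the KM12C and HT-29 arrays overlapped. CDKN1A ran from 8.84 ± 0.212 (SD, n = 2) in TALL-104 and 8.13 ± 0.147 (SD, n = 3) in HCT-116 to 6.85 ± 0.0964 (SD, n = 3) in NK-92 cells, and the HT-29, KM12C and NK-92 arrays overlapped. With elraglusib the MDM2 signal of HCT-116 cells, 14.97 to 15.11, lay above that of TALL-104 cells, 14.17 to 14.58, which had been the higher with DMSO.

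**Figure D4:**
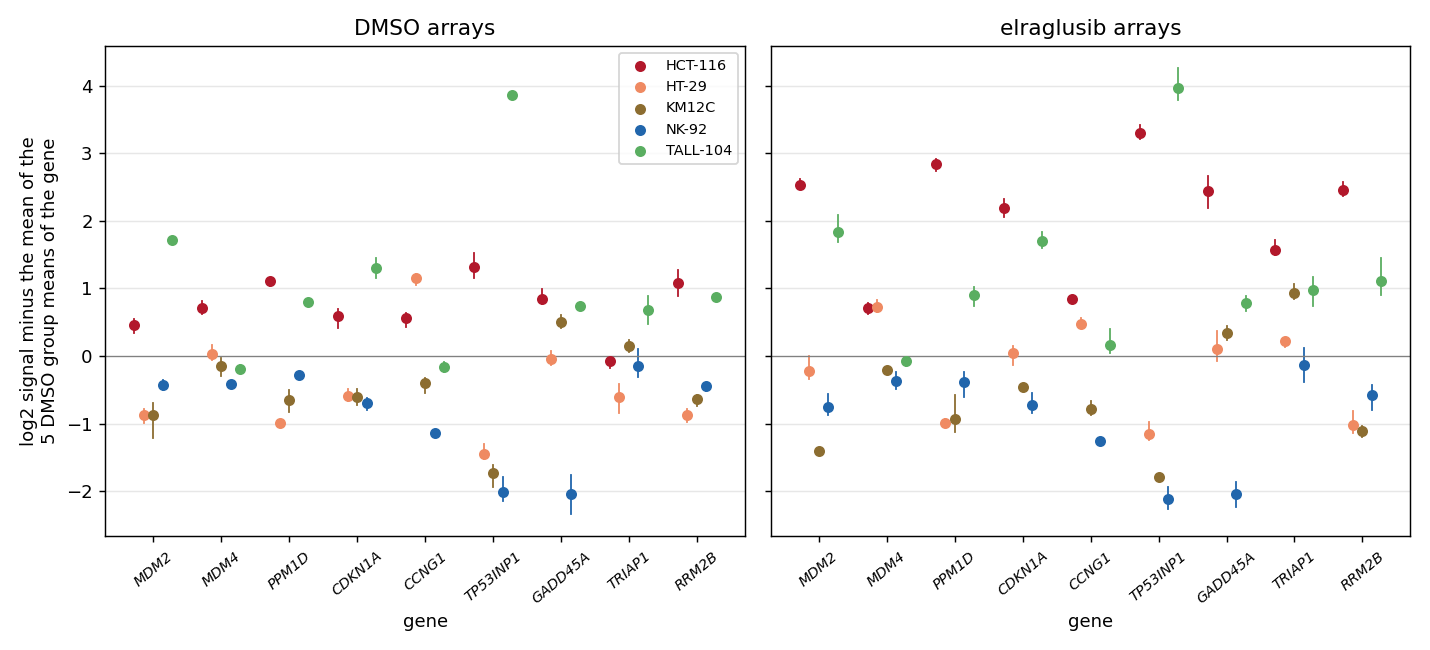
Log2 signal of each gene (x axis) in each line (colour) on the DMSO arrays (left) and elraglusib arrays (right), less the mean of the 5 DMSO group means of that gene (y axis); points are group means and bars run from the lowest to the highest array. TP53INP1 spans the widest range between lines, with TALL-104 at the top and NK-92 at the bottom, and HCT-116 rises for most genes on the right.

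Among the 9 genes, the pattern over 29 arrays, taken as the difference from the DMSO mean of the same line, was closest for MDM2 and TP53INP1, with a Pearson r of 0.95. Without HCT-116 cells, over 23 arrays, that r was 0.72. MDM2 and PPM1D went from 0.92 to 0.49, CDKN1A and PPM1D from 0.86 to 0.08, and MDM2 and MDM4 the other way, from 0.22 to 0.77. The arrays share lines and treatments and are not independent points. Of 22456 other genes, those most like MDM2 were FAS (r = 0.98), the metabolic regulator TIGAR (0.95), the death receptor gene TNFRSF10B (0.95), the secreted stress factor GDF15 (0.95) and BLOC1S2 (0.93). Those most like CDKN1A were the stress transcription factor ATF3 (0.92), ARRDC4 (0.91), the xenobiotic enzyme CYP1A1 (0.91), the chemokine CCL20 (0.90) and CPA4 (0.90). All of these like genes rose in HCT-116 cells, and their r without that line was not computed.

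The wider p53 target list, 27 measured genes outside the 9, rose in HCT-116 cells for 23 and fell for 0, with a median difference of 1.04. Of all probe sets, 0.817% rose and 0.336% fell in this line. The list holds genes that the paper names as raised in HCT-116 cells on these same arrays, such as FAS, GDF15 and PLK3. Its count is therefore not independent support. Listed genes with the smallest p were the kinase PLK2 at 2.33, GDF15 at 2.92, RPS27L at 1.30 and the stress protein SESN2 at 1.58. Leaving out 1 HCT-116 array at a time brought the list to between 11 and 15 risen genes, with 87 to 148 calls over all probe sets in place of 779, while the count among the 9 was 7 in each of these 6 fits. In HT-29 cells 2 of the 27 rose, the nuclease gene AEN at 1.27 and TIGAR at 0.63, and 2 fell, the apoptosome gene APAF1 at -1.05 and the growth suppressor BTG1 at -1.06, with a list median of 0.02. AEN is already named by the paper as raised in HT-29 cells. Over all probe sets of this line 4.62% rose and 3.39% fell. In KM12C cells 0 rose and 0 fell by limma, though 15 had an unadjusted p under 0.05, as 17.5% of all probe sets did, with a median of -0.26. Without KM12C DMSO replicate 3, 1 rose and 7 fell, and 7265 probe sets in place of 1011 were called.

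Regulators of p53, 16 measured genes, had 0 calls by limma in HCT-116 cells, with 8 at an unadjusted p under 0.05, as 12.8% of all probe sets had. In HT-29 cells 4 rose and 2 fell, against 4.62% and 3.39% of all probe sets, with 1 to 3 rises and 0 to 2 falls when 1 array was left out. The risen genes included the mitotic kinase AURKA at 1.21, the acetyltransferase CREBBP at 0.68 and the kinase HIPK2 at 0.68, and the fallen ones TP73 at -0.49. KM12C cells had 0 calls in this list with an adjusted p. At an unadjusted p under 0.05, 2 of its genes passed, where 17.5% of all probe sets did. Without DMSO replicate 3 the list had 1 rise and 2 falls, where 7265 probe sets in place of 1011 were called. Close relatives of the 9 genes numbered 11. GADD45B rose by 0.93 in HCT-116 cells (adjusted p = 0.0262), beside GADD45A, and was not called when any HCT-116 array was left out. In HT-29 cells the kinase inhibitor CDKN1B (p27) fell by 1.38 on the log2 scale and the cyclin gene CCNG2 by 0.80, where their relatives CDKN1A rose and CCNG1 fell, and the list had 2 falls in all 6 fits that left out 1 array. KM12C cells had 0 calls among these relatives. At an unadjusted p under 0.05, 4 of the relatives passed, where 17.5% of all probe sets did. Without DMSO replicate 3 there were 2 falls among them, beside the 7265 calls over all probe sets.

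Of 26 genes for cell cycle machinery that p21 restrains, 0 rose and 2 fell in HCT-116, against 0.817% and 0.336% of all probe sets. The fallen genes were the mitotic kinases AURKB at -0.99 and BUB1 at -0.59, and 0 to 2 fell when 1 array was left out. The paper, by its unadjusted threshold, already names AURKB, CDC25C and MKI67 as lowered in HCT-116 cells on these arrays. Of those genes AURKB alone was called here, by the adjusted p. At an unadjusted p under 0.05, 14 of the 26 passed by limma, as 12.8% of all probe sets did. The list median was -0.22, with 19 of the 26 differences negative. In HT-29 cells 6 rose and 11 fell, against 4.62% and 3.39% of all probe sets. The fallen genes included the topoisomerase TOP2A at -2.27, the cyclin CCNE2 at -2.50 and the replication helicase subunit MCM5 at -1.63, and the risen ones included the mitotic cyclin CCNB1 at 1.19. KM12C cells had 3 rises and 4 falls, with CCNB1 at 0.94, CDC20 at 0.90, TOP2A at -1.73 and CCNE2 at -1.53. CCNE2 is already named by the paper as lowered in both HT-29 and KM12C cells. Without KM12C DMSO replicate 3 the list had 4 rises and 5 falls, where 7265 probe sets in place of 1011 were called. CDKN1A was not called in KM12C cells, and any link between it and these genes was not tested. In that line 0.603% of all probe sets rose and 0.894% fell. In NK-92 and TALL-104 cells 0 of the 80 genes of these lists passed by limma, with 4 in each at an unadjusted p under 0.05, where 4.34% and 5.12% of all probe sets passed that limit.

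**Figure D5:**
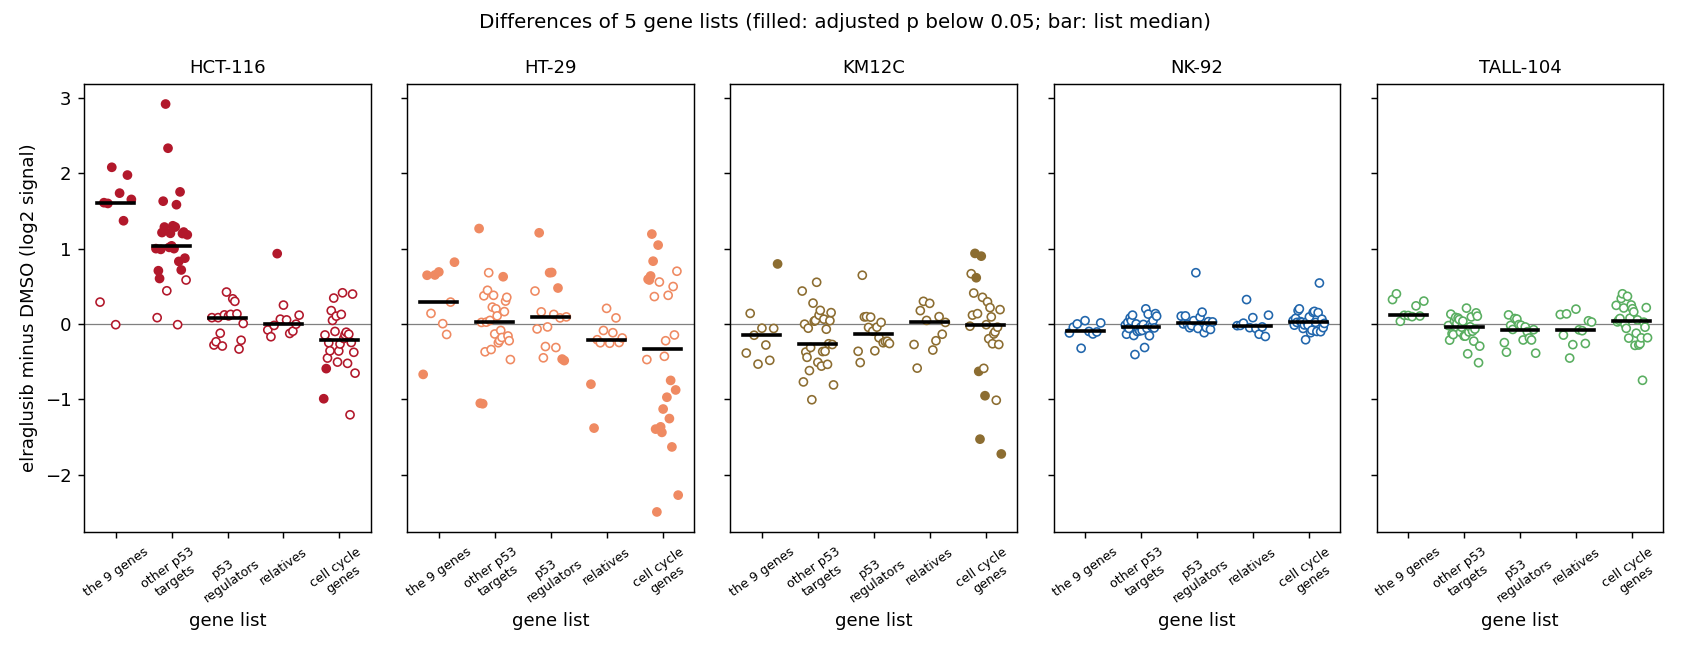
Difference in log2 signal, elraglusib minus DMSO (y axis), of every measured gene in 5 lists (x axis) in each cell line (panel); filled points have an adjusted p under 0.05 and bars are list medians. In HCT-116 the 9 genes and the other p53 targets have medians of 1.61 and 1.04. The remaining lists have medians from -0.22, for the cell cycle genes, to 0.08. In HT-29 cells calls in both directions occur in most lists.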

How the data were processed

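RNA of 5 cell lines was read on 30 arrays, 6 per line. The authors deposited log2 signal per probe set, made with the Transcriptomic Analysis Console; which version was used, and its normalization and background steps, were not given in the sources used here. Assays were run in 2 batches, and the batch of an array is not labelled, so batch could not be fitted. No filter or transformation was applied, and all 30 columns were matched to samples. Symbols came from the platform annotation (23781 of 67528 probe sets with a single symbol, 1543 with several, 42204 with none); 3 of 19 regulators, 3 of 30 other targets and 1 of 12 relatives were not analysed here.

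A limma model (version 3.58.1, R 4.3.3) was fitted to each line separately, with treatment as the term and the Benjamini-Hochberg adjustment over all 67528 probe sets. Responses were compared in a fit over 29 arrays, and DMSO levels in a fit over the 14 DMSO arrays. Named genes are the 9, up to 4 genes per other list and line with the smallest p, and the 5 genes most like MDM2 and most like CDKN1A. Genes and lists were chosen with earlier results of these data known. Alternatives were quantile normalization, leaving out probe sets under the 40th percentile of mean signal, trend and robust eBayes, array weights, a replicate block, a single probe set per gene, wider or narrower fits, the paper's thresholds (fold change beyond 1.5, unadjusted p under 0.05), and leaving out each array; the counts of the other lists without single arrays were added after seeing the data. The number of arrays limits the precision. The main limma comparisons of treatments, responses and DMSO levels were tested on simulated data. The promoter search, list counts, correlations and alternative settings were not. Promoter sequences and gene coordinates are those of RefSeq on GRCh38.p14. The authors' own comparisons were not used.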

Additional observations from a re-analysis of the deposited data

Results flagged for a closer look

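Responses that differed between cell lines, by a limma contrast with an adjusted p under 0.05, are listed here as log2 differences. No group held enough arrays for an outlier test. HCT-116 against HT-29 gave MDM2 1.43, MDM4 -0.70, PPM1D 1.73, CDKN1A 0.96, CCNG1 0.96, TP53INP1 1.69, GADD45A 1.46, TRIAP1 0.83 and RRM2B 1.51. HCT-116 against KM12C gave MDM2 2.61, PPM1D 2.02, CDKN1A 1.47, CCNG1 0.68, TP53INP1 2.04, GADD45A 1.75, TRIAP1 0.86 and RRM2B 1.85. HT-29 against KM12C gave MDM2 1.18 and MDM4 0.75. HCT-116 against NK-92 gave MDM2 2.40, PPM1D 1.84, CDKN1A 1.65, TP53INP1 2.08, GADD45A 1.60, TRIAP1 1.64 and RRM2B 1.50. HCT-116 against TALL-104 gave MDM2 1.97, PPM1D 1.64, CDKN1A 1.21, TP53INP1 1.87, GADD45A 1.57, TRIAP1 1.35 and RRM2B 1.13. All of these contrasts share the HCT-116 arrays except those of HT-29 against KM12C, so they are not independent of each other. The TP53INP1 contrasts against HT-29, KM12C and NK-92 rest on a signal close to the array median in those lines.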

How the results depend on the processing

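Counts of called genes were computed under 228 alternatives over 15 comparisons, and 214 were within 1.5 times the main count or equal to it. HCT-116 cells had 7 called genes in every alternative run. In HT-29 cells the count of 5 ranged from 3 (without DMSO replicate 1) to 5 when each array was left out. In KM12C cells the count of 1 became 4 with array weights, 4 in the fit over 29 arrays, 2 with a single probe set per gene and 0 to 4 when each array was left out, the 4 without DMSO replicate 3. Calls over all probe sets of that line were 1011 in the main fit and 8538 with array weights. They were 4537 in the fit over 29 arrays and 7265 without DMSO replicate 3. The 4 HT-29 against KM12C DMSO calls ranged from 2 to 4 when each array was left out, and with TALL-104 DMSO replicate 2 kept in the counts were 0 for the HCT-116 against TALL-104 response and 0 for the NK-92 against TALL-104 DMSO level, where the response contrast of TP53INP1 turned to -0.013. Differences near 0 changed sign without being called. When each array was left out, these ranged from -0.06 to 0.035 for MDM4 in HCT-116, -0.027 to 0.038 for PPM1D in HT-29, -0.13 to 0.005 for MDM4 in KM12C, -0.018 to 0.11 for MDM4, -0.17 to 0.013 for PPM1D, -0.135 to 0.01 for CDKN1A, -0.195 to 0.0033 for TP53INP1 and -0.11 to 0.14 for TRIAP1 in NK-92, and -0.015 to 0.19 for MDM2, -0.04 to 0.195 for TP53INP1 and -0.02 to 0.09 for GADD45A in TALL-104 cells. Array weights gave 0.014 for MDM4 in HCT-116 and -0.024 for PPM1D in HT-29, and quantile normalization gave -0.012 for PPM1D in HT-29 and -0.0018 for TRIAP1 in NK-92. Same-numbered arrays of the 2 treatments did not deviate together in every line, so the numbers were not taken as pairs; a replicate block gave 7, 5, 1, 0 and 0 called genes in HCT-116, HT-29, KM12C, NK-92 and TALL-104 cells, and TALL-104 differences of -0.015 for MDM2 and -0.04 for TP53INP1. Where leaving out an array left 1 in a TALL-104 group, that array was taken to vary like the others. Other probe sets of a gene were not run, since each of the 9 has 1. The cause of these changes was not tested.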

Other observations

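The array labelled TALL-104 DMSO replicate 2, which was left out of the main comparisons, read 11.86 for MDM2, 6.61 for MDM4, 9.87 for PPM1D, 6.72 for CDKN1A, 11.47 for CCNG1, 4.56 for TP53INP1, 7.10 for GADD45A, 9.92 for TRIAP1 and 10.15 for RRM2B on the log2 scale. The other DMSO arrays of TALL-104 read 14.16 and 14.25 for MDM2, 10.23 and 10.20 for TP53INP1 and 9.82 and 9.81 for GADD45A, while the NK-92 DMSO arrays read 11.99 to 12.13, 4.21 to 4.56 and 6.73 to 7.31 for these genes.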
